A study of Mus musculus with 19 samples.

Results

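The pyruvate dehydrogenase complex and the kinases that switch it off were followed in exercised mouse muscle through 8 genes. These were the kinase genes Pdk4, Pdk2, Pdk1 and Pdk3, the E1 genes Pdha1 and Pdhb, the E2 gene Dlat and the E3 gene Dld. They were taken by name from the 12393 genes that had a probe set with a single gene symbol. They carried 13 of the 20380 such probe sets, and the probe set with the highest mean over 19 arrays stood for its gene. All 8 genes were among the 7436 tested.

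Each array measured RNA of a tibialis anterior muscle, a fast muscle of the shin, taken 12 h after 50 eccentric contractions, in which the active muscle is stretched. The mice were 129/SVE. WT_Adult (5 arrays) and WT_Aged (5) were wild type, aged 7 to 9 weeks and 12 to 14 months, and KO_Adult (5) and KO_Aged (4) were desmin knockouts (Des-/-) of the same ages. Desmin is the intermediate filament protein that ties neighbouring myofibrils together at their Z-discs, and the knockout animals lack it in every tissue. All groups were exercised, so each difference is one between exercised muscles, and rest levels were not analysed here.

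Pyruvate dehydrogenase turns pyruvate from glycolysis into acetyl-CoA inside mitochondria, and so sets how much carbohydrate enters the citric acid cycle. E1 removes carbon dioxide from pyruvate, E2 passes the acetyl group to coenzyme A, and E3 re-oxidises the lipoyl arm of E2. The kinases phosphorylate the E1 alpha subunit and thereby inactivate the complex. In muscle, Pdk4 is known as the kinase induced by fasting, exercise and glucocorticoids, and Pdk2 as the kinase present under most conditions.

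The deposited values are Affymetrix MAS5 signals on a linear scale, and levels below are on that scale. Differences are on a log2 scale after quantile normalization, and calls are limma's, at an adjusted p (Benjamini-Hochberg, over all tested genes) below 0.05. Whether each array stands for its own animal is not stated in the labels, and p-values therefore reflect only array-to-array spread, part of which may be technical. Des read 10749 to 22313 on the WT arrays and 72.7 to 879 on the KO arrays. Fast fibre markers were abundant, as the 10 genes of that list summed to 206154 or more on every array. The arrays fell apart on a technical control: poly-A spike-in RNA gave signal on 8 arrays (the whole WT_Aged group and replicates 3, 4 and 5 of KO_Adult) and almost none on the other 11. These 8 also had far more 18S ribosomal RNA signal, from 5835 to 19660 by its control probe set, where the rest had 29.1 to 181. What made this split was not tested. WT_Aged against WT_Adult and KO_Aged against WT_Aged both lie wholly across it, so that age in the first and genotype in the second cannot be told apart from it, and a model term for it can be estimated only through KO_Adult. With that term, KO_Adult minus WT_Adult and KO_Aged minus KO_Adult equal their estimates from the arrays without poly-A signal alone. On the KO_Adult side both then rest on replicates 1 and 2, and they are no second check. KO_Aged replicates 2 and 3 had Gapdh 3' to 5' ratios of 8.61 and 5.01 (a measure of RNA integrity), against 0.968 at most elsewhere. WT_Adult replicates 4 and 5 and KO_Aged replicates 1 and 4 lay apart from the other arrays without poly-A signal on the first principal component.

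The genes with calls were Pdk2, Pdk3, Dlat and Pdk1, while Pdk4, Pdha1, Pdhb and Dld had none on their main probe sets. In adult KO against adult WT, 2 of 8 were called (25%), Pdk3 higher and Pdk2 lower, where 16.7% of all tested genes were called. In aged KO against aged WT, 3 of 8 were called (37.5%), Pdk2, Pdk3 and Dlat, all higher, against 29.5% of all genes. In aged against adult WT, 2 of 8 (25%), Pdk2 and Dlat, were lower, against 38.9% of all genes. In aged against adult KO, 1 of 8 (12.5%), Pdk1, was lower, against 7.44%. The interaction, the genotype difference in aged muscle minus that in adult muscle, was called for 2 of 8 genes, Pdk2 and Dlat, against 25.1%. These comparisons share groups with each other and are not independent. With a term for the poly-A split the calls were Pdk3 in adult KO against WT (1 of 8, all genes 6.67%) and Pdk1 in aged against adult KO (1 of 8, all genes 9.98%). No gene of the 8 was then called in aged KO against WT, where limma called 5.49% of all genes and 2 of 8 had an unadjusted p under 0.05 (all genes 24.9%). The same held for aged against adult WT (0.0941% of all genes called, 3 of 8 unadjusted, all genes 14.2%) and for the interaction (0.0269% called, 2 of 8 unadjusted, all genes 16.5%).

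**Figure D1:**
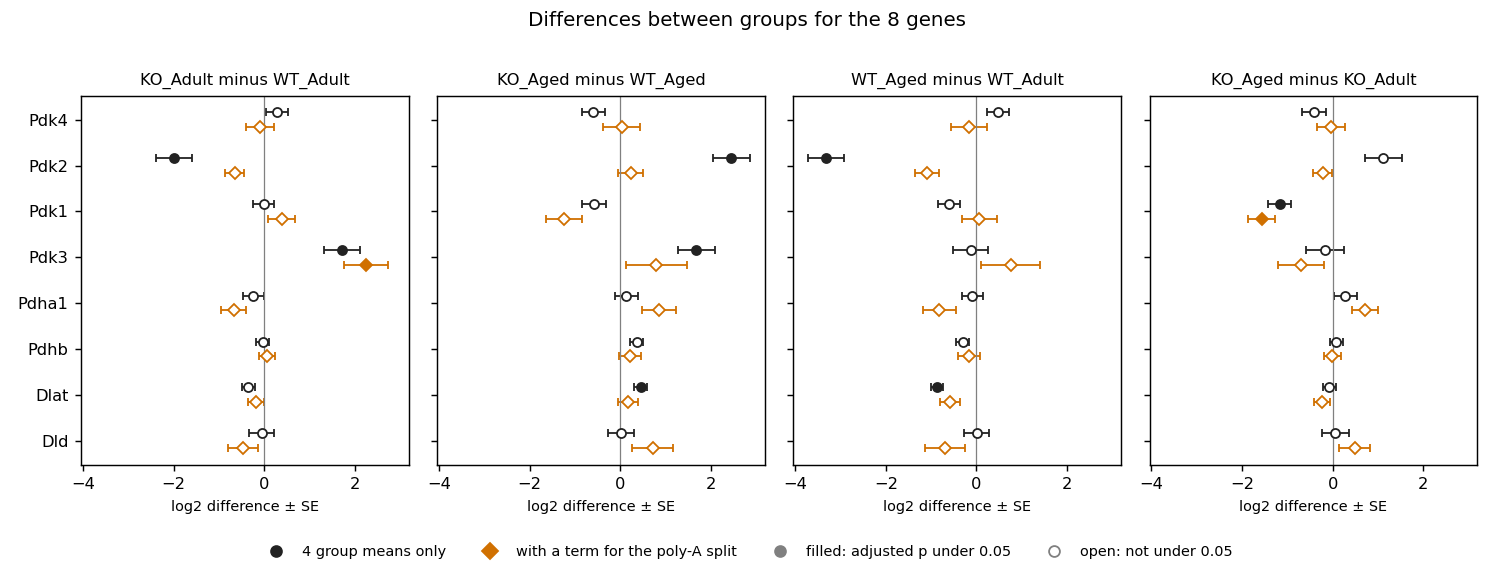
Log2 differences with standard errors (x axis) for the 8 genes (y axis) in the 4 pairwise comparisons, from the fit with 4 group means (circles) and with an added term for the poly-A split (diamonds); filled symbols have an adjusted p under 0.05. The Pdk2 circles lie between -3.32 and 2.45 and its diamonds between -1.09 and 0.22, while Pdk3 in adult KO against WT and Pdk1 in aged against adult KO are filled in both.

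Pdk2, the kinase present in most tissues, was low in WT_Aged and high in WT_Adult. Its probe set (1448825_at) read 5985, 5266, 7541, 5145 and 5557 on the 5 WT_Adult arrays and 442, 511, 673, 671 and 664 on the 5 WT_Aged arrays. On KO_Adult replicates 1 to 5 it read 4701, 3284, 770.3, 715 and 917, and on the 4 KO_Aged arrays 2905, 2938, 3535 and 3309.8. WT_Aged lay below every other group, WT_Adult above, and KO_Adult was divided, with replicates 1 and 2 high and replicates 3, 4 and 5 low. Of all tested genes, 29.4% did not overlap between the WT groups after normalization, 31.2% between the aged groups and 10.1% between the adult groups. Group levels were 5899 ± 973 (SD, n = 5) for WT_Adult, 3172 ± 304 (SD, n = 4) for KO_Aged, 2077 ± 1820.0 (SD, n = 5) for KO_Adult and 592 ± 108 (SD, n = 5) for WT_Aged. KO_Aged lay inside the range of KO_Adult, whose low arrays were just above the highest WT_Aged array.

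On the log2 scale Pdk2 fell by 9.99-fold in aged against adult WT, a difference of -3.32 (SE 0.39, adjusted p = 3.01e-05). It fell in adult KO against WT, with a difference of -1.99 (SE 0.39, adjusted p = 0.00226), and rose in aged KO against WT, with a difference of 2.45 (SE 0.41, adjusted p = 0.000337). The interaction was 4.44 (SE 0.57, adjusted p = 9.40e-05). Aged against adult KO gave 1.12 (SE 0.41, adjusted p = 0.103) and was not called, but it was called without KO_Adult replicate 1 at 1.51 (adjusted p = 0.0120) or without replicate 2 at 1.39 (adjusted p = 0.0362).

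The Pdk2 signal followed the poly-A split array by array. The 8 arrays with poly-A signal read 442 to 917 and the 11 without read 2905 to 7541, with no overlap. No other gene of the 8 was divided in this way by its main probe set, and 2.9% of all tested genes had every array with poly-A signal below every array without. Inside KO_Adult, where genotype and age are the same, the 3 arrays with poly-A signal read 801 ± 104 (SD, n = 3) and the 2 without read 3992 ± 1002 (SD, n = 2). In WT muscle age and the split cannot be told apart. With the split as a term, the differences were -0.65 (adjusted p = 0.0659) in adult KO against WT, 0.22 (adjusted p = 0.652) in aged KO against WT and -1.09 (adjusted p = 0.127) in aged against adult WT.

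Differences in Pdk2 within one side of the split were smaller. Among arrays with poly-A signal, KO_Adult minus WT_Aged was 0.44 (SE 0.17, adjusted p = 0.110), where 16.4% of all genes were called. Among arrays without it, KO_Adult minus WT_Adult was -0.65 (SE 0.21, adjusted p = 0.150) and KO_Aged minus KO_Adult was -0.22 (SE 0.22, adjusted p = 0.586). One such difference was called: KO_Aged minus WT_Adult, -0.87 (SE 0.17, adjusted p = 0.00610), where 21.4% of all genes were called. Each of the 4 KO_Aged arrays lay below each of the 5 WT_Adult arrays, but genotype and age both differ in that comparison and cannot be told apart. The share of all genes without overlap between these 2 groups was not counted.

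**Figure D2:**
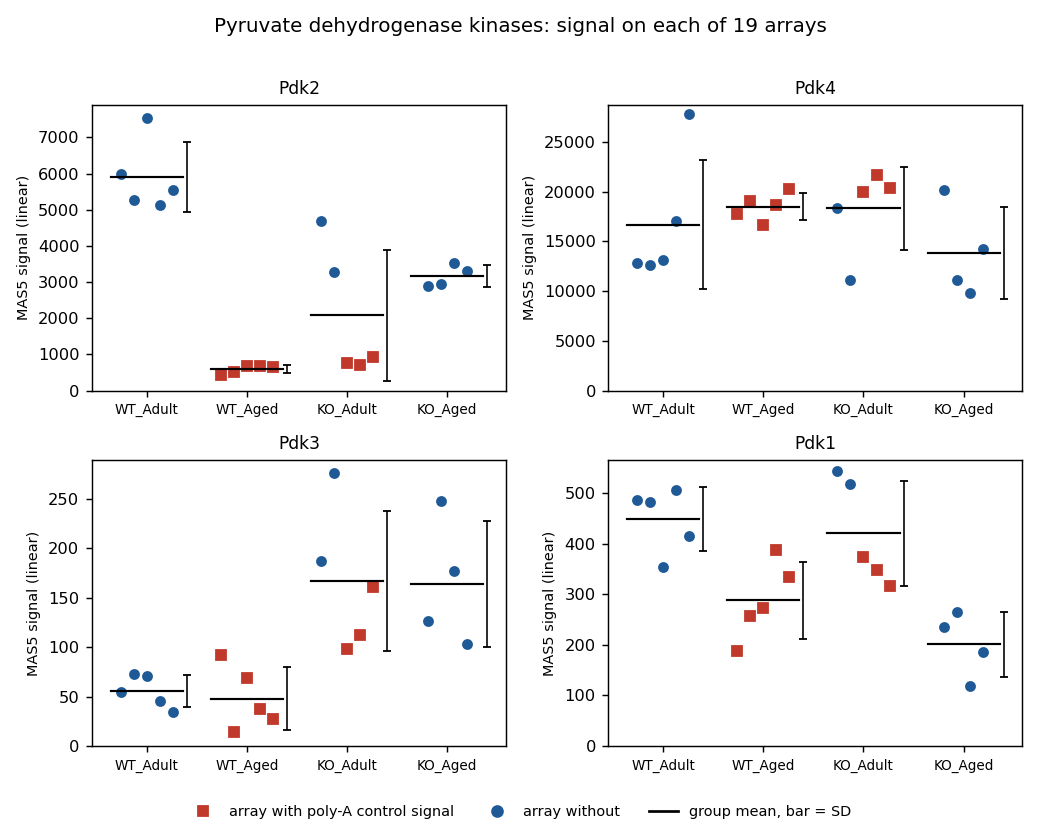
MAS5 signal on a linear scale (y axis) of the main probe sets of Pdk2, Pdk4, Pdk3 and Pdk1 on each of 19 arrays in 4 groups (x axis); squares are arrays with poly-A control signal, circles arrays without, lines are group means and bars SDs. All Pdk2 squares lie at 917 or less and all circles at 2905 or more. In the Pdk3 panel every KO array lies above every WT array on this scale, though not after quantile normalization.

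Pdk4 was high in every group and was called in none of the 5 comparisons. Its only probe set (1417273_at) read 12822, 12613, 13131, 17019 and 27795 in WT_Adult and 17785, 19044, 16639, 18649 and 20290.4 in WT_Aged. It read 18344, 11130.3, 19954, 21700.1 and 20382 in KO_Adult and 20189.5, 11148, 9806 and 14216 in KO_Aged. All 4 groups overlapped, and the highest and lowest arrays of the series, WT_Adult replicate 5 and KO_Aged replicate 3, both lacked poly-A signal. The order of group means was WT_Aged at 18482 ± 1369 (SD, n = 5), KO_Adult at 18302 ± 4184 (SD, n = 5), WT_Adult at 16676 ± 6475 (SD, n = 5) and KO_Aged at 13839.8 ± 4618 (SD, n = 4), and no neighbours in it differed beyond their SDs.

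The Pdk4 difference was 0.28 (SE 0.25, adjusted p = 0.447) in adult KO against WT, with a 95% interval of -0.23 to 0.80. Aged KO against WT gave -0.59 (SE 0.26, adjusted p = 0.0945), with an interval of -1.14 to -0.047. Aged against adult gave 0.47 (SE 0.25, adjusted p = 0.137) in WT, with an interval of -0.049 to 0.98, and -0.41 (SE 0.26, adjusted p = 0.375) in KO, with an interval of -0.96 to 0.14. These intervals leave room for differences near 1 log2 unit, so the data do not show that the groups were alike. The call of the aged genotype difference depended on the arrays in the fit. Without KO_Adult replicate 2, an array outside this comparison, the difference stayed at -0.59. Its SE was then 0.22, and it was called (adjusted p = 0.0443). It was also called at -0.82 (adjusted p = 0.0220) without KO_Aged replicate 1, and at -1.01 (adjusted p = 0.0100) without the 4 arrays that lay apart. That last setting leaves KO_Aged with replicates 2 and 3 alone, the arrays of high Gapdh ratio. Without those 2 arrays instead, the difference was -0.17 (adjusted p = 0.755). With a term for the poly-A split it was 0.032 (adjusted p = 0.971). The Pdk4 interaction of -0.88 (SE 0.36, adjusted p = 0.0805) became -1.52 (adjusted p = 0.00606) without the arrays that lay apart, -0.46 (adjusted p = 0.434) without KO_Aged replicates 2 and 3, -1.10 (adjusted p = 0.0121) without KO_Adult replicate 2, -1.11 (adjusted p = 0.0248) without KO_Aged replicate 1 and 0.12 (adjusted p = 0.934) with the term.

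Among arrays with poly-A signal, Pdk4 was narrow in range, at 16639 to 21700.1 on 8 arrays. The 11 arrays without it spread from 9806 to 27795. KO_Adult minus WT_Aged, both with poly-A signal, was 0.066 (SE 0.12, adjusted p = 0.738), and KO_Adult minus WT_Adult, both without, was -0.093 (SE 0.37, adjusted p = 0.913).

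Pdk3 was the kinase that was higher in desmin-null muscle at both ages. This kinase is usually scarce in muscle, and its probe set (1426410_at) was dim. It read 55.0, 72.4, 71.1, 45.5 and 34.5 in WT_Adult and 92.3, 14.3, 68.3, 37.3 and 27.1 in WT_Aged. It read 187, 276, 98.3, 112 and 160.3 in KO_Adult and 126, 247, 177 and 104 in KO_Aged. Every KO array (98.3 to 276) lay above every WT array (14.3 to 92.3) in the deposited values. After quantile normalization the order held except that WT_Aged replicate 1 was level with KO_Aged replicate 4 (log2 6.56 and 6.55). On that scale 0.968% of all tested genes had every KO array above every WT array, and Pdk3 was not among them.

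Group means of Pdk3 were 167 ± 70.8 (SD, n = 5) for KO_Adult, 163 ± 63.8 (SD, n = 4) for KO_Aged, 55.7 ± 16.4 (SD, n = 5) for WT_Adult and 47.9 ± 31.9 (SD, n = 5) for WT_Aged, and neighbours of the same genotype did not differ beyond their SDs. Pdk3 rose 3.28-fold in adult KO against WT, a log2 difference of 1.71 (SE 0.39, adjusted p = 0.00646), and 3.20-fold in aged KO against WT, a log2 difference of 1.68 (SE 0.42, adjusted p = 0.00569). Age gave -0.13 (SE 0.39, adjusted p = 0.809) in WT and -0.17 (SE 0.42, adjusted p = 0.863) in KO. The interaction was -0.035 (SE 0.57, adjusted p = 0.971), with a 95% interval of -1.23 to 1.16. Pdk3 was near the limit of the filter on dim genes: its mean over all arrays was log2 6.47 against a limit of 6.32, and the WT mean of 5.66 was under that limit, so it was tested because the KO arrays were higher. Without the filter the adult difference kept an adjusted p of 0.0140 and the aged one of 0.0113.

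The higher Pdk3 signal was found on both sides of the poly-A split. Among arrays with poly-A signal, KO_Adult minus WT_Aged was 1.49 (SE 0.41, adjusted p = 0.0385). Among arrays without it, KO_Adult minus WT_Adult was 2.24 (SE 0.45, adjusted p = 0.0360), where 1.43% of all genes were called, and KO_Aged minus WT_Adult was 1.55 (SE 0.36, adjusted p = 0.0132). Only 2 KO_Adult arrays lack poly-A signal, and age differs in the first and the last of these. All were run on the filtered genes only, which Pdk3 entered because its KO arrays were higher. Their adjusted p without the filter was not computed. With the split as a term, adult KO against WT was 2.24 (adjusted p = 0.0144), the same estimate as among arrays without poly-A signal. Aged KO against WT was 0.79 (adjusted p = 0.475) with the term. The aged difference also rested on the 2 arrays of high Gapdh ratio, which read 247 and 177 against 126 and 104 on the other KO_Aged arrays. Without both of them it was 1.11 (adjusted p = 0.142).

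Slow fibre markers also differed between genotypes, though genotype in aged muscle cannot be told apart from the poly-A split. The 8 slow fibre genes summed to 23133 to 40210.0 on KO_Aged arrays and 12792 to 20985 on KO_Adult arrays, against 4067 to 9488 for WT_Aged and 8095 to 15788 for WT_Adult. Of them, 2 of 8 rose (all genes 7.32%) and 1 fell (all genes 9.37%) in adult KO against WT. In aged KO against WT 7 of 8 rose (all genes 16.9%). With a term for the poly-A split, 1 of 8 was called higher in the adults and 3 of 8 in aged muscle. Of all genes, 6.67% were called with the term in the adults and 5.49% in aged muscle, in either direction. The 8 endothelial genes went the other way in the adults, from 13660.1 to 18106 in WT_Adult to 5206 to 8073 in KO_Adult. Of them 7 of 8 were called lower (all genes 9.37%), and 6 of 8 with the term. In aged KO against WT 4 of 8 were called lower (all genes 12.5%) and 1 higher. With the term 3 of 8 were lower there. No gene of these lists was at the lowest value on any array. Their part in the Pdk differences was not tested. In whole muscle, more cells of a type and more RNA per cell cannot be told apart.

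Windows of 250 bases before an annotated start of the 3 kinase genes Pdk2, Pdk4 and Pdk3 are shown because the genes gave different results. Pdk2 was divided by the poly-A split without overlap. Pdk3 was called higher in KO at both ages, though in aged muscle not with a term for the split. Pdk4 was called in no comparison of the main fit. The sequences are RefSeq's on GRCm38.p6, all on the minus strand, written 5′ to 3′. Capitals mark CCAAT boxes (CCAAT or ATTGG on the printed strand) and the E-box CACGTG.
Pdk2 promoter, chr11:95041372-95041621: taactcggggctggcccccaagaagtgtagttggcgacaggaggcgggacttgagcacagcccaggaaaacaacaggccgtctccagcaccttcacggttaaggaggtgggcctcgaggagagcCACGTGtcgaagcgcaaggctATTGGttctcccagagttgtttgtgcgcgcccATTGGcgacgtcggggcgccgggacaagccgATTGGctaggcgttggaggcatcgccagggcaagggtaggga
Pdk4 promoter, chr6:5496279-5496528: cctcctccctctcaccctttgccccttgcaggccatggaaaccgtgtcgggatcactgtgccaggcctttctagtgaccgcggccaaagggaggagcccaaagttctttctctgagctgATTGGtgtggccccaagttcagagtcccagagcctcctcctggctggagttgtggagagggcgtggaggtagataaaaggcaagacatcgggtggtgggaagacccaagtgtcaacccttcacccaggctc
Pdk3 promoter, chrX:93832151-93832400: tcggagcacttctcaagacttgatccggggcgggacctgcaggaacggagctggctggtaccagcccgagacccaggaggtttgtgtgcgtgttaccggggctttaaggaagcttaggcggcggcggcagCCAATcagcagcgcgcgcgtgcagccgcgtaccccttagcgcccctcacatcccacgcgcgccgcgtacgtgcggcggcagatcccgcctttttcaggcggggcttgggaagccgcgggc
The printed Pdk2 window has 3 CCAAT boxes in reverse orientation, 105, 73 and 42 bases before the start, and an E-box at 126. Pdk4 has 1 CCAAT box in reverse orientation at 131 and Pdk3 has 1 in forward orientation at 120. Among 32851 mouse windows of this length, 33.8% hold CCAAT on either strand and 6.02% hold CACGTG. The nuclear receptor half-site AGGTCA (14.0% of windows) and the forkhead motif GTAAACA (3.17%) were searched on both strands and found in none of the 3 windows. ACGTG, the core of the hypoxia response element (16.6%), overlaps the E-box of Pdk2 and lies 53 bases before the start of Pdk3. A second annotated start of Pdk2 lies 496 bases from the edge of the gene. Its window, not printed here, held none of these motifs. All these are matches of letters only, and no binding was measured.

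Pdk1, a kinase known as a target of hypoxia signalling, had 2 probe sets that disagreed. The brighter one (1423747_a_at) read 486, 483, 354, 506 and 415 in WT_Adult, 188, 257, 272, 388 and 333 in WT_Aged, 543, 518, 373, 349 and 316 in KO_Adult and 236, 265, 118 and 187 in KO_Aged. All 4 KO_Aged arrays lay below all 5 KO_Adult arrays and all WT_Adult arrays. The KO groups did not overlap, in either direction, for 8.14% of all tested genes. That share was not counted for KO_Aged against WT_Adult. Means ran from 449 ± 63.0 (SD, n = 5) for WT_Adult and 419.8 ± 104 (SD, n = 5) for KO_Adult to 288 ± 76.3 (SD, n = 5) for WT_Aged and 201 ± 64.4 (SD, n = 4) for KO_Aged. The 2 adult groups did not differ beyond their SDs, with a genotype difference of -0.013 (SE 0.24, adjusted p = 0.974).

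Pdk1 fell 2.24-fold in aged against adult KO, a difference of -1.17 (SE 0.25, adjusted p = 0.0114), and was -1.56 (adjusted p = 0.00739) with a term for the poly-A split. Without KO_Aged replicate 3, the lowest array, the difference was -0.96 (adjusted p = 0.0542) and not called. Among arrays without poly-A signal, KO_Aged minus KO_Adult was -1.56 (SE 0.31, adjusted p = 0.0539), the same estimate as with the term, where 0.0672% of all genes were called. KO_Aged minus WT_Adult was called among them at -1.18 (SE 0.24, adjusted p = 0.00692). In aged against adult WT the difference was -0.60 (SE 0.24, adjusted p = 0.0558) and in aged KO against WT -0.58 (SE 0.25, adjusted p = 0.0946), neither called. The first was called without WT_Aged replicate 4 at -0.71 (adjusted p = 0.0393). It was also called without KO_Aged replicate 2 or 3, arrays outside that comparison, where the difference stayed at -0.60. The second was called without WT_Aged replicate 1 at -0.73 (adjusted p = 0.0424) or KO_Aged replicate 2 at -0.80 (adjusted p = 0.0313). Marker genes of several cell types differed with age as well. In aged against adult KO, 2 of 4 neutrophil genes were called higher, where 3.68% of all genes were. Their sum was 412 to 4339.9 in KO_Adult and 6826 to 12579 in KO_Aged. Called higher too were 5 of 8 slow fibre and 2 of 7 macrophage genes. With the poly-A term these were 1 of 4, 1 of 8 and 2 of 7, where 9.98% of all genes were called in either direction. No tested fast fibre, adipocyte, endothelial or fibroblast gene was called there. The part of these markers in the Pdk1 difference was not tested.

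The dimmer Pdk1 probe set (1423748_at) read 367, 280.4, 457, 496 and 375 in WT_Adult, 86.7, 107, 89.5, 157 and 133 in WT_Aged, 268, 304, 209, 176 and 219 in KO_Adult and 182, 264, 200.4 and 208 in KO_Aged. Here WT_Aged was the low group and lay below every other array. Of all tested genes, 29.4% did not overlap between the WT groups and 31.2% between the aged groups. That share was not counted for KO_Adult against WT_Aged. When every probe set was tested on its own, it gave -0.25 (SE 0.23, adjusted p = 0.572) in aged against adult KO, -1.68 (SE 0.21, adjusted p = 6.22e-05) in aged against adult WT and 0.82 (SE 0.23, adjusted p = 0.0119) in aged KO against WT. The aged genotype difference thus had opposite signs on the 2 probe sets, and that of the dimmer one was called. With a term for the poly-A split the dimmer one gave 0.29 (adjusted p = 0.635) in that comparison and -1.15 (adjusted p = 0.205) in aged against adult WT, and neither was called.

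The E1 alpha gene Pdha1, which carries the serines that the kinases phosphorylate, also depended on the probe set. The brighter one (1418560_at) read 6633, 6208, 8061, 13112 and 13089 in WT_Adult and 8435, 8617, 9341, 6420.4 and 8341 in WT_Aged. It read 5896, 5946, 8970.0, 8304 and 10150.1 in KO_Adult and 9039, 7112, 9302 and 9577 in KO_Aged. The groups overlapped, and the 2 highest arrays, WT_Adult replicates 4 and 5, were among those that lay apart. No comparison was called, with differences of -0.24 (SE 0.24, adjusted p = 0.513) in adult KO against WT, 0.13 (SE 0.25, adjusted p = 0.718) in aged KO against WT, -0.088 (SE 0.24, adjusted p = 0.788) in aged against adult WT and 0.28 (SE 0.25, adjusted p = 0.556) in aged against adult KO. The 95% intervals were -0.73 to 0.26 for the adult and -0.39 to 0.66 for the aged genotype difference.

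The dimmer Pdha1 probe set (1449137_at) read 4172, 3556, 5803, 8878 and 9667 in WT_Adult and 1273, 1239, 1701, 1123 and 1540.2 in WT_Aged. It read 3899.5, 4006, 1558, 1785 and 1339.8 in KO_Adult and 5629, 3031, 4593 and 5396 in KO_Aged. Like Pdk2, it was divided by the poly-A split without overlap, with 1123 to 1785 on the 8 arrays with signal and 3031 to 9667 on the 11 without. Of all tested genes, 2.9% were divided in this direction by their main probe sets. Tested on its own it was called in adult KO against WT (-1.46, adjusted p = 0.00918), aged KO against WT (1.82, adjusted p = 0.00144) and aged against adult WT (-2.16, adjusted p = 0.000266), and none of these was called with a term for the split. Both probe sets were designed on the same RefSeq transcript accession of Pdha1, so they read the same gene and gave different differences without the term. With the term, adult KO against WT was -0.67 on the brighter and -0.67 on the dimmer one. Aged KO against WT was then 0.86 and 0.51, aged against adult WT -0.82 and -0.84, and aged against adult KO 0.72 and 0.33. None of these was called.

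**Figure D3:**
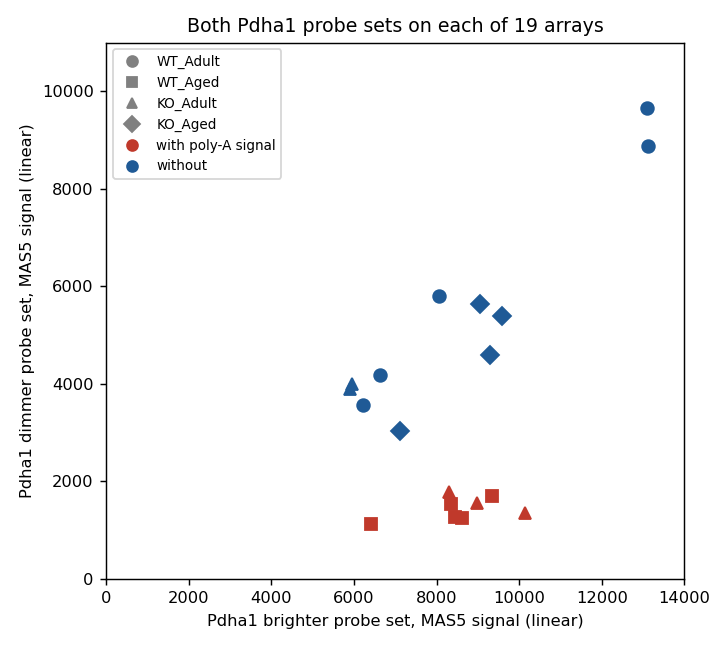
MAS5 signals of the brighter (x axis) and dimmer (y axis) Pdha1 probe sets on each of 19 arrays, both on linear scales; shapes are the 4 groups, red marks arrays with poly-A control signal and blue arrays without. The red points stay at 1785 or less on the y axis and lie at 6420 to 10150 on the x axis. The blue points rise along both axes, from 5896 to 13112 on x and from 3031 to 9667 on y.

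Pdhb, the E1 beta subunit, changed little. Its brighter probe set (1416090_at) read 9741, 9429, 8610.3, 8338 and 7586 in WT_Adult, 7644, 6724, 7392, 6547 and 7241 in WT_Aged, 9689, 10711, 7502, 6887 and 11378 in KO_Adult and 7559.8, 11949, 8262 and 8294 in KO_Aged. WT_Aged was the lowest and tightest group, and its highest array overlapped the lowest of the other 3. The largest differences were 0.36 (SE 0.15, adjusted p = 0.0786) in aged KO against WT and -0.31 (SE 0.14, adjusted p = 0.0922) in aged against adult WT, neither called. Genotype in the adults gave -0.029 (SE 0.14, adjusted p = 0.909), with a 95% interval of -0.32 to 0.27, and age in the KO gave 0.081 (SE 0.15, adjusted p = 0.806). The dimmer probe set (1448214_at, 263 to 699 over all arrays) was called in aged KO against WT at 0.68 (SE 0.20, adjusted p = 0.0192) when tested on its own, in the same direction, and was 0.48 (adjusted p = 0.390) with a term for the poly-A split.

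Dlat, the E2 acetyltransferase at the core of the complex, was lower in aged WT muscle than in the other groups. Its main probe set (1426265_x_at) read 4007, 4012, 4393, 4575 and 4559 in WT_Adult and 2396, 2122, 2693, 2413 and 2401 in WT_Aged. It read 4152, 3853, 3056, 2756 and 4060.2 in KO_Adult and 2975, 4023, 3191 and 2885 in KO_Aged. Every WT_Aged array lay below every array of the 3 other groups. Of all tested genes, 29.4% did not overlap between WT_Aged and WT_Adult and 31.2% between WT_Aged and KO_Aged. Means were 4309 ± 283 (SD, n = 5) for WT_Adult, 3575 ± 629.6 (SD, n = 5) for KO_Adult, 3268 ± 519 (SD, n = 4) for KO_Aged and 2405 ± 202 (SD, n = 5) for WT_Aged, and the 2 KO groups did not differ beyond their SDs.

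Dlat fell 1.82-fold in aged against adult WT, a difference of -0.87 (SE 0.14, adjusted p = 0.000214), and rose 1.36-fold in aged KO against WT, a difference of 0.45 (SE 0.14, adjusted p = 0.0269). The interaction was 0.79 (SE 0.20, adjusted p = 0.00814). Genotype in the adults gave -0.35 (SE 0.14, adjusted p = 0.0875) and age in the KO -0.074 (SE 0.14, adjusted p = 0.820), neither called. The other 2 probe sets, drawn from the same transcript accession, were called in the same direction in aged against adult WT (-0.79 and -0.78) and in aged KO against WT (0.37 and 0.78). The dimmest of the 3 (1452005_at) was also called in adult KO against WT at -0.80 (SE 0.22, adjusted p = 0.0217) and in aged against adult KO at 0.79 (SE 0.24, adjusted p = 0.0492), where the brighter 2 were not called. None of these calls of the other 2 probe sets was kept with a term for the poly-A split.

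The call of the aged genotype difference in Dlat, though not its size, depended on single arrays: it was 0.40 (adjusted p = 0.0680) without WT_Aged replicate 2, 0.37 (adjusted p = 0.0913) without KO_Aged replicate 2 and 0.45 (adjusted p = 0.0542) without KO_Aged replicate 3. With a term for the poly-A split it was 0.17 (adjusted p = 0.674), and aged against adult WT was -0.59 (adjusted p = 0.255). Among the arrays with poly-A signal, KO_Adult minus WT_Aged was 0.41 (SE 0.15, adjusted p = 0.0845), not called, and the KO_Adult arrays (2756 to 4060.2) lay above all WT_Aged arrays (2122 to 2693). How many of all genes did so was not counted.

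Dld, the E3 dehydrogenase that this complex shares with the 2-oxoglutarate and branched-chain complexes, gave no call. Its probe set (1423159_at) read 1751, 1541, 1406, 3012 and 3154 in WT_Adult and 2145, 2214, 2350.0, 1519.9 and 2533 in WT_Aged. It read 1291, 1717, 2261, 2800.0 and 2520.4 in KO_Adult and 2573, 1438, 1922 and 2891 in KO_Aged. Group means lay between 2118 ± 611 (SD, n = 5) for KO_Adult and 2206 ± 652 (SD, n = 4) for KO_Aged, and all groups overlapped. Differences were -0.049 (SE 0.28, adjusted p = 0.921) in adult KO against WT and 0.011 (SE 0.29, adjusted p = 0.982) in aged KO against WT, with 95% intervals of -0.63 to 0.53 and -0.60 to 0.62.

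Dld and Pdha1 rose and fell together over the arrays rather than with the groups. Over 19 arrays their normalized log2 values (main probe sets) had r = 0.86, with 0.88 over the 11 arrays without poly-A signal and 0.75 over the 8 with it. In those 11 arrays, Dld correlated at 0.92 and Pdha1 at 0.86 with the first principal component, on which the 4 arrays named above lie apart, against 0.58 for Pdk4. Pdk2 and Dlat had r = 0.84 over 19 arrays, 0.71 without and 0.78 with poly-A signal. These correlations are descriptions over arrays that share their groups and the poly-A split.

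**Figure D4:**
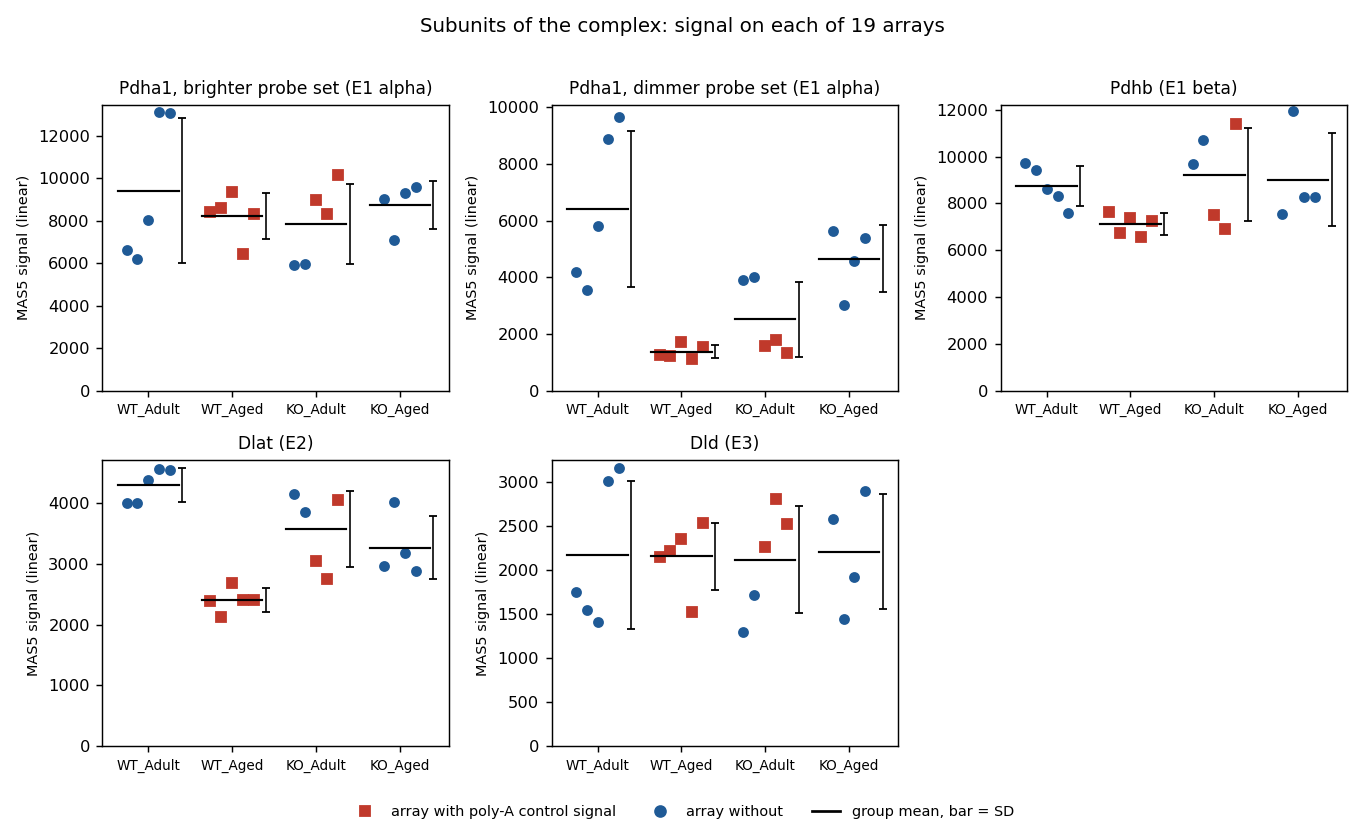
MAS5 signal on a linear scale (y axis) for the E1, E2 and E3 genes on each of 19 arrays in 4 groups (x axis); squares are arrays with poly-A control signal, circles arrays without, lines are group means and bars SDs. Dlat is lowest in WT_Aged (2122 to 2693), the dimmer Pdha1 probe set is low on every square, and Dld and the brighter Pdha1 probe set share their 2 highest arrays, both WT_Adult.

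The genes whose normalized log2 pattern over 19 arrays was most like that of Pdk2 were Npr2 (r = 0.98), Col1a1 (0.98), Nabp2 (0.98), Hadha (0.98) and Colgalt1 (0.98). Without poly-A signal (11 arrays) these were 0.86, 0.73, 0.79, 0.79 and 0.78, and with it (8 arrays) 0.92, 0.92, 0.70, 0.66 and 0.80. For Pdk4 they were Nrip1 (0.91), Zfand5 (0.91), Trps1 (0.90), Ttn (0.90) and Cnot6l (0.90). Within the 8 arrays with poly-A signal, where Pdk4 varied little, the same 5 gave 0.53, 0.014, 0.27, 0.48 and -0.081. Over the 11 without it they gave 0.87, 0.89, 0.89, 0.86 and 0.87.

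The other genes around the complex were read from lists made by function, with up to 3 called genes per list and comparison named by smallest p. Calls over all tested genes were 7.32% higher and 9.37% lower in adult KO against WT, and 16.9% and 12.5% in aged KO against WT. They were 18.1% and 20.8% in aged against adult WT, and 3.68% and 3.75% in aged against adult KO. Of the lipoylation and pyruvate carrier list, 4 of 10 genes were tested, Lias, Lipt1, Lipt2 and Mpc1, and 1 was called. Lias, which makes the lipoyl groups of E2, fell by 0.38 in aged against adult WT and was -0.047 (adjusted p = 0.933) with the poly-A term. With the term the called genes were Lipt1, a lipoyl transferase, at -1.96 (adjusted p = 0.0220) in aged KO against WT, and Lias at -0.56 (adjusted p = 0.0456) in aged against adult KO. The phosphatases that reverse the kinases were not analysed here.

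Of 9 tested enzymes and carriers that supply or drain pyruvate, 3 fell and none rose in adult KO against WT (median -0.49, all genes 0.041), and 4 rose and 1 fell in aged KO against WT (median 0.14, all genes 0.073). In aged against adult WT, 4 fell and none rose (median -0.17, all genes -0.03). With the poly-A term 2 of the 9 fell in each of the first 2 comparisons, and limma called none in the last. Of all genes, 6.67%, 5.49% and 0.0941% were called with the term in these 3 comparisons, in either direction. Slc16a3, a lactate exporter, was -2.70 (adjusted p = 0.000592) in adult KO against WT, and -1.53 (adjusted p = 0.0346) with the poly-A term. Pkm, the muscle pyruvate kinase, was -0.78 (adjusted p = 0.00341) in adult and 1.38 (adjusted p = 2.61e-05) in aged KO against WT, with -0.35 (adjusted p = 0.162) and 0.66 (adjusted p = 0.0605) with the term.

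Gpt2, the mitochondrial alanine aminotransferase that interconverts pyruvate and alanine, was lower in aged KO muscle. It was -2.44 (adjusted p = 1.22e-05) against aged WT and -1.51 (adjusted p = 0.00488) against adult KO, and both were called with the term, at -2.90 (adjusted p = 0.00483) and -1.79 (adjusted p = 0.00975). Ldhb, the heart-type lactate dehydrogenase subunit, was 1.18 (adjusted p = 0.000649) and 0.79 (adjusted p = 0.0334) in the same comparisons, and neither was called with the term.

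In the citric acid cycle, which takes up the acetyl-CoA, 9 of 14 tested genes fell and none rose in aged against adult WT (median -0.39). Sdhc, a membrane anchor of succinate dehydrogenase, was -1.64 (adjusted p = 8.12e-05) and Idh2, the NADP-linked mitochondrial isocitrate dehydrogenase, -0.92 (adjusted p = 0.000722). No gene of the 14 was called there with a term for the poly-A split. In adult KO against WT 4 of 14 fell and none rose, and in aged KO against WT 2 rose and 1 fell, and with the term none of the 14 was called in either. In aged against adult KO, Idh2 was 0.91 (adjusted p = 0.00637) and Idh3b, a subunit of the NAD-linked enzyme, -1.13 (adjusted p = 0.0435), and both were called with the term, at 0.76 (adjusted p = 0.0432) and -1.43 (adjusted p = 0.0402).

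The sister complexes use the same chemistry and share Dld. Of their 6 tested genes, 4 fell and none rose in aged against adult WT, where Dlat fell. Ogdh, the E1 of the 2-oxoglutarate complex, was -1.27 (adjusted p = 3.95e-05) there, -0.69 (adjusted p = 0.00643) in adult KO against WT and 0.87 (adjusted p = 0.000900) in aged KO against WT. Dlst, its E2, was -0.75 (adjusted p = 0.000566) in aged against adult WT and -0.50 (adjusted p = 0.0160) in adult KO against WT. With the poly-A term none of the 6 was called in aged against adult WT, where Ogdh was -0.74 (adjusted p = 0.199). The term also left Ogdh uncalled in adult KO against WT, at -0.37 (adjusted p = 0.198), and in aged KO against WT, at 0.34 (adjusted p = 0.373), and Dlst in adult KO against WT, at -0.49 (adjusted p = 0.0986).

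Regulators of the kinase genes gave calls in both directions. Of 11 tested transcription factors and coactivators, 1 rose and 2 fell in adult KO against WT, 1 rose and 1 fell in aged KO against WT, and 2 rose and 4 fell in aged against adult WT. Rxra, the partner receptor of the PPARs, was -0.96 (adjusted p = 0.00495) in adult KO against WT and was called with the poly-A term too (adjusted p = 0.0413). Klf15, a glucocorticoid-induced factor, was 1.72 (adjusted p = 0.00856) in aged KO against WT, and Cebpb -1.48 (adjusted p = 0.00149), with 1.29 (adjusted p = 0.307) and -0.23 (adjusted p = 0.728) with the term. Hif1a, the hypoxia factor, was 1.86 (adjusted p = 0.00507) in aged against adult WT and 0.043 (adjusted p = 0.982) with the term.

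Targets that PPARs or glucocorticoids share with Pdk4 were examined beside it. Of 10 tested PPAR targets, none was called in adult KO against WT and 1 rose in aged KO against WT, Mlycd (malonyl-CoA decarboxylase), at 0.68 (adjusted p = 0.0121), which was 0.20 (adjusted p = 0.708) with the term. Of 10 tested FOXO and glucocorticoid targets, 5 fell and none rose in aged KO against WT, with a median of -0.97 against 0.073 for all genes. With the poly-A term that median was -0.12. Tsc22d3 was -1.18 (adjusted p = 0.00156), Sesn1 -1.16 (adjusted p = 0.00369) and Ddit4 -1.14 (adjusted p = 0.00770), and of these 5 falls Ddit4 was the one called with the poly-A term, at -1.91 (adjusted p = 0.0248). Pdk4 itself was -0.59 in that comparison and was not called.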

How the data were processed

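Mouse muscle RNA was hybridised to Affymetrix arrays, 1 array per sample (19 arrays). The deposited values are linear signal intensities per probe set, which the authors made with MAS5 (named, with no version, in the submitters' processing notes). Probe sets with exactly 1 gene symbol in the platform annotation were used (20380 of 22690). A pseudocount of 4.76, percentile 10 of all values, was added before taking log2, and arrays were quantile normalized without the 64 control probe sets, because array medians spanned 0.63 log2. Each gene was represented by its brightest probe set, and 7436 genes, the 60% with the highest means, were tested. A mean per group was fitted over all 19 arrays with limma 3.58.1 in R 4.3.3 (lmFit, eBayes), with Benjamini-Hochberg adjustment. A fold on the log2(value + 4.76) scale understates the change of dim genes. Poly-A signal means a dap control value over 100. Alternatives covered normalization, pseudocount, filter, probe set, variance model, array weights, arrays in the fit, title codes, the poly-A split and RNA integrity. Leaving out the arrays that lay apart, joining the poly-A term with the integrity filter, and KO against WT of the other age within 1 side of the split were added after seeing the data. The genes and lists were chosen with earlier results of these data known. All 8 genes and all their probe sets were named, with the 5 genes most correlated with Pdk2 and Pdk4 and up to 3 called genes of smallest p per list and comparison. The fit was tested on simulated data. The number of arrays limits the precision.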

Additional observations from a re-analysis of the deposited data

Results flagged for a closer look

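Each of the 13 probe sets was examined in each of 4 groups for a single array far from the others, 52 tests in all, and 2 stood out; chance alone marks about 1 group in 20. Pdk4 read 11130.3 on KO_Adult replicate 2, where the other 4 arrays of the group read 18344 to 21700.1. The brighter Pdha1 probe set read 6420.4 on WT_Aged replicate 4, where the others read 8341 to 9341.

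The genotype difference itself differed between ages for 2 of 8 genes (25%) by the interaction test in limma on main probe sets. Of all tested genes, 25.1% were called in that test, and 0.0269% with a term for the poly-A split. For Pdk2 the difference in aged minus that in adult muscle was 4.44 on the log2 scale (adjusted p = 9.40e-05), and 0.88 (adjusted p = 0.310) with a term for the poly-A split. For Dlat it was 0.79 (adjusted p = 0.00814), and 0.35 (adjusted p = 0.590) with the term. When every probe set was tested on its own in limma, the dimmer Pdha1 one gave 3.28 (adjusted p = 0.000298). The dimmer Pdk1 one gave 1.43 (adjusted p = 0.00324), where the brighter one was -0.57 and not called. With the term these dimmer ones were 1.17 (adjusted p = 0.401) and 0.58 (adjusted p = 0.563).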

How the results depend on the processing

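Differences are called adult genotype, aged genotype, WT age and KO age here, and the count is of called genes among the 8. Printed are counts that moved by over 1.5 times, Pdk2, Pdk3 and Pdk4 values whose call changed, and values whose sign turned with a call or by at least 1 SE. Smaller turns of uncalled values, such as those of Pdhb with the term, are left out. With a term for the poly-A split, the count was 0 for the interaction, 1 for adult genotype, 0 for aged genotype, 0 for WT age, Pdk2 was 0.88 for the interaction, -0.65 for adult genotype, -0.22 for KO age, 0.22 for aged genotype, -1.09 for WT age, Pdk3 was 0.79 for aged genotype, 0.75 for WT age, Pdk4 was 0.12 for the interaction, -0.093 for adult genotype, 0.032 for aged genotype, -0.16 for WT age, Pdk1 was 0.38 for adult genotype, 0.061 for WT age and Dld was -0.70 for WT age. With that term and without the 2 arrays of high Gapdh ratio, the count was 0 for the interaction, 1 for adult genotype, 1 for aged genotype, 0 for WT age, Pdk2 was 0.89 for the interaction, -0.65 for adult genotype, -0.20 for KO age, 0.24 for aged genotype, -1.09 for WT age, Pdk3 was 0.23 for aged genotype, 0.75 for WT age, Pdk4 was 0.55 for the interaction, -0.093 for adult genotype, 0.39 for KO age, 0.45 for aged genotype, -0.16 for WT age, Pdk1 was 0.38 for adult genotype, 0.061 for WT age, Pdhb was -0.072 for KO age and Dld was -0.70 for WT age. With only the arrays without poly-A signal, the count was 1 for adult genotype, 0 for KO age, Pdk2 was -0.65 for adult genotype, -0.22 for KO age, Pdk4 was -0.093 for adult genotype and Pdk1 was 0.38 for adult genotype. Without the 2 arrays of high Gapdh ratio alone, the count was 1 for aged genotype, Pdk3 was 1.11 for aged genotype and Pdk4 was 0.011 for KO age. Without the 4 arrays that lay apart, Pdk3 was 0.91 for the interaction, 0.40 for KO age, Pdk4 was -1.52 for the interaction, -1.01 for aged genotype, 0.69 for WT age, Pdha1 was 0.14 for adult genotype, 0.29 for WT age and Dld was 0.37 for adult genotype, -0.33 for KO age, -0.38 for aged genotype. With array weights, the count was 4 for the interaction, 4 for adult genotype, 2 for KO age, 5 for aged genotype, 5 for WT age, Pdk2 was 1.85 for KO age, Pdk4 was -1.18 for the interaction, 0.61 for adult genotype, -0.57 for aged genotype, 0.60 for WT age, Pdha1 was 0.30 for adult genotype, 0.25 for WT age and Dld was 0.37 for adult genotype. With the mean of all probe sets of a gene, the count was 4 for adult genotype, 0 for KO age, 5 for aged genotype, 4 for WT age, Pdk1 was 0.12 for aged genotype, Pdhb was 0.19 for adult genotype and Dlat was 0.20 for KO age. With median centring in place of quantile normalization, Pdk4 was -0.95 for the interaction, Pdha1 was 0.029 for adult genotype, Pdhb was 0.31 for adult genotype, -0.17 for KO age and Dld was 0.24 for adult genotype. With only the compared groups in the fit, the count was 0 for KO age, 5 for WT age and Pdk4 was 0.47 for WT age. With the upper 40% of genes, the count was 1 for adult genotype. Leaving out 1 array at a time gave 0 to 2 called genes for KO age (2 without KO_Adult replicate 1 or 2, 0 without KO_Aged replicate 3), 2 to 4 for aged genotype, 2 to 3 for WT age and for the interaction, 0.86 to 1.51 for Pdk2 KO age, -0.82 to -0.43 for Pdk4 aged genotype and -1.11 to -0.72 for the Pdk4 interaction, which was called without KO_Adult replicate 2, KO_Aged replicate 1 or, at -1.02 (adjusted p = 0.0402), WT_Adult replicate 5. In limma fits with a count of 0, 1 to 3 of 8 genes had an unadjusted p under 0.05. The cause of these changes was not tested. The pseudocount, the filter removed, no normalization, the variance model and the title code as a random block changed no call of Pdk2, Pdk3 or Pdk4 in limma, and Pdk3 in adult KO against WT was called under all its alternatives, at 1.16 to 2.24. The upper 40% of genes leaves Pdk3 out. Except with the filter removed, its alternatives were run on genes above a level limit, which Pdk3 passed because its KO arrays were higher. Those runs are therefore no separate support for its call. No paired analysis was possible because the labels number no replicates. The codes that end the titles share 1 stem between groups (WT_Aged replicates 4 and 5 and KO_Aged replicate 4), which the random block covers. Dim probe sets, Pdk3 above all, carry the least signal over background.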
